A study of Homo sapiens with 18 samples.

Results

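The 10 genes described here mark or drive the epithelial to mesenchymal transition: the epithelial adhesion genes CDH1 and EPCAM, the mesenchymal genes VIM, FN1 and CDH2, and the transcription factors SNAI1, SNAI2, ZEB1, ZEB2 and TWIST1. They were chosen by gene symbol. All probe sets with 1 of these symbols in the platform annotation were taken, which gave 26 of the 54675 probe sets of the array and 10 of the 19775 genes with a probe set of a single symbol. The RNA came from FTC-133, an established human follicular thyroid carcinoma cell line, grown without treatment. Aliquots of 1 RNA sample were hybridized to 3 HG-U133 Plus 2.0 arrays, called A, B and C, and no condition of the cells was varied.

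What differed between the 18 scans was the handling of the arrays. Arrays A and B were each scanned after 0, 2, 7 and 17 additional stringent washing cycles (scans 1 to 4 of each array), stained a second time and taken through the same steps again (scans 5 to 8). Array A had received no stringent cycle before its first staining, and array B had received 2. Array C followed the standard protocol with 6 stringent cycles before each of its 2 stainings and was scanned once in each series (C1 and C2). Each staining consisted of 3 rounds. Since all scans show the same RNA, a difference between them is a difference in measurement, and since the scans of an array re-read a single hybridization, every p-value below refers to technical spread. The number of arrays limits the precision.

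Epithelial cells are held together by E-cadherin, the product of CDH1, and by EPCAM. In the transition these are lost, and cells gain vimentin (VIM), a cytoskeletal filament, fibronectin (FN1), a matrix protein, and N-cadherin (CDH2). SNAI1, SNAI2, ZEB1, ZEB2 and TWIST1 encode transcription factors that repress CDH1, and the pattern is studied in thyroid cancer because it accompanies dedifferentiation and invasion.

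All values are MAS5 signals, the expression summary that combines the perfect match and mismatch probes of a probe set, on a linear scale. Each scan had been scaled to a common trimmed mean (250.02 to 250.06), while the median signal lay between 51.0 and 136.2, so that changes are relative to the other probe sets. As a reference for low signals, 85 probe sets of 40 genes of other tissues were used. Their 90th percentile lay between 57.3 (C1) and 270.0 (A1). Single genes of the reference were themselves above it in many scans, HBB in 14 and CD79A in 11, but 0 of the 40 in all 18. A count short of 18 therefore does not by itself show expression. Signals of different probe sets are not compared as amounts of transcript.

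The cell line label was set against 7 measured thyroid genes. NKX2-1 and PAX8, thyroid transcription factors, lay above the reference in all 18 scans, with 766 and 757 on C1. HHEX, another transcription factor, lay above it in 11 scans and the iodide transporter SLC5A5 in 8. FOXE1 and TSHR, the receptor for thyrotropin, were above it in 0 scans, and thyroglobulin (TG) was above it in 2. Of markers of other cells that a tissue would hold, the endothelial PECAM1 was above the reference in 17 scans, KDR in 14, VWF in 5 and CDH5 in 2. The leukocyte gene CD3D was above it in 1 scan, and PTPRC and CD14 in 0. CD3D and PTPRC are themselves among the reference genes, which limits what their low counts show. Of 6 fibroblast genes, THY1 (4322 on C1), COL3A1 and COL1A1 were above it in all 18 scans, LUM in 5, and DCN and PDGFRB in 0. The part of other cells in these signals was not tested.

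Of the 11 probe sets of the mesenchymal genes, 6 were bright and 5 were not. VIM (201426_s_at) lay between the percentiles 99.3 and 99.8 of all probe sets in every scan, FN1 (211719_x_at) at 99.3 or above, and CDH2 (203440_at) between 95.3 and 96.8, and the other 3 bright FN1 probe sets had median percentiles of 99.6 to 99.8. VIM 1555938_x_at lay between 35.6 and 68.0, FN1 214702_at between 50.7 and 82.1, and FN1 214701_s_at, FN1 1558199_at and CDH2 203441_s_at between 71.3 and 85.2. SNAI2, ZEB1 (212764_at) and TWIST1 ranged between 84.6 and 94.7. CDH1 (201131_s_at) lay between 2.7 and 40.4, and was above the reference in 0 of 18 scans. EPCAM lay between 58.7 and 78.4 and was above the reference in 14 scans. In all, 11 of the 26 probe sets were above the reference in all 18 scans: 1 of VIM, 6 of FN1, 1 of CDH2, SNAI2, 1 of ZEB1 and TWIST1. Another 4 were above it in 0 scans, namely 1 of CDH1, 1 of ZEB1 and 2 of ZEB2.

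**Figure D1:**
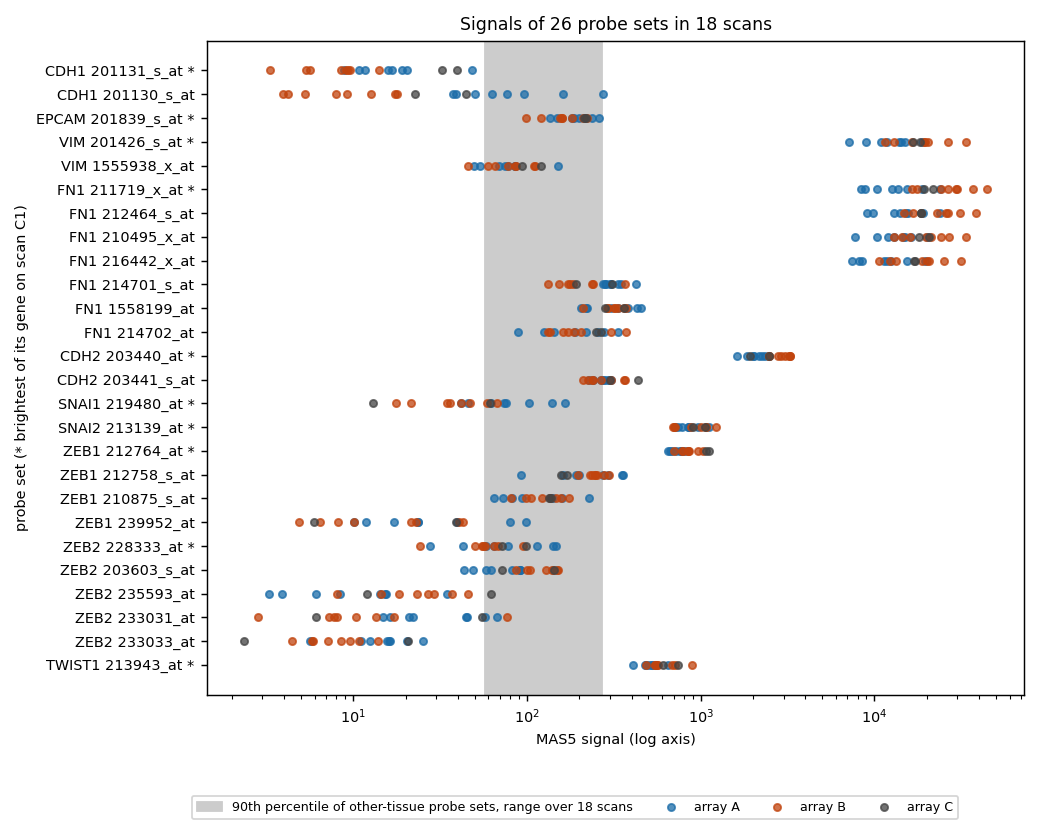
MAS5 signal (log axis) of each of the 26 probe sets in 18 scans, 1 point per scan, coloured by array, with the range over scans of the 90th percentile of other-tissue probe sets in grey. The bright probe sets of VIM, FN1 and CDH2 lie to the right of the grey range in every scan, and all points of CDH1 201131_s_at lie at or below 48.3.

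Of the epithelial genes, CDH1 stayed below the reference for low signals with its representative probe set. CDH1 (201131_s_at) gave 48.3, 8.83, 11.7 and 20.4 on scans A1 to A4 and 14.1, 9.55, 3.33 and 9.08 on B1 to B4. In the second series it gave 15.9, 19.2, 10.8 and 16.7 on array A and, for array B, 9.27, 8.46, 5.38 and 5.67, with 32.3 on C1 and 39.6 on C2. The highest value was thus that of the unwashed scan A1, and the arrays overlapped.

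The second CDH1 probe set (201130_s_at) separated the arrays. It gave 274.1, 161.8, 37.5 and 50.3 on A1 to A4 and 63.0, 76.7, 38.9 and 96.2 on A5 to A8. On array B it gave 12.7, 9.23, 17.4 and 3.95, then 4.21, 17.8, 5.31 and 7.99, and on array C 22.6 and 44.5. All 8 scans of A were above all 8 of B for this 1 of the 26 probe sets, against 10.4% of all probe sets, and 0 of the 26 had all scans of B above those of A, against 2.35%. Array and pre-washing cannot be told apart in this comparison.

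EPCAM (201839_s_at), an epithelial adhesion molecule, gave 182.8, 148.4, 187.8 and 258.9 on A1 to A4 and 181.7, 220.8, 120.3 and 210.5 on B1 to B4. In the second series the signals were 215.1, 198.8, 135.8 and 238.4 on array A, 158.4, 98.98, 155.4 and 159.9 on array B, and on array C 214.3 and 219.3 in the first and second series. No order with washing is seen, and the arrays overlapped.

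The brightest probe sets of the 3 mesenchymal genes had higher signals after 17 than after 0 additional cycles in all 4 runs of an array and series. The same held for the epithelial EPCAM, with smaller changes, but not for the less bright probe sets of the mesenchymal genes. VIM gave 7178, 10930.4, 15049 and 18676 on A1 to A4 and 12907, 19403, 26569 and 33482 on B1 to B4. After the second staining it gave 8943, 11762, 14198 and 13935 on array A and, for array B, 11458, 16358, 20379 and 19622. Array C gave 18362 and 16640.1. In the first series the signal was higher at every step on both arrays, and in the second the last step was slightly lower than the one before.

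FN1 (211719_x_at) gave 8827, 13642, 18827 and 24005 on A1 to A4 and 17655, 26464, 37173 and 44627 on B1 to B4. The second series gave 8328, 10353, 12614 and 15395 on array A and, for array B, 16376, 24024, 29573 and 29991, and array C gave 21881 and 19419. This was the only one of the 26 probe sets whose signal was higher at every step in all 4 runs of an array and series.

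CDH2 (203440_at) gave 1619, 2031, 2353 and 2469 on A1 to A4 and 2467, 2474, 2886 and 3283 on B1 to B4. The second series gave 1855, 1993, 2176 and 2258 on array A and, for array B, 2776, 3078, 3275 and 3233, and array C gave 1916 and 2463. The range over all scans was 2.03-fold, compared with 4.66-fold for VIM and 5.36-fold for FN1.

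**Figure D2:**
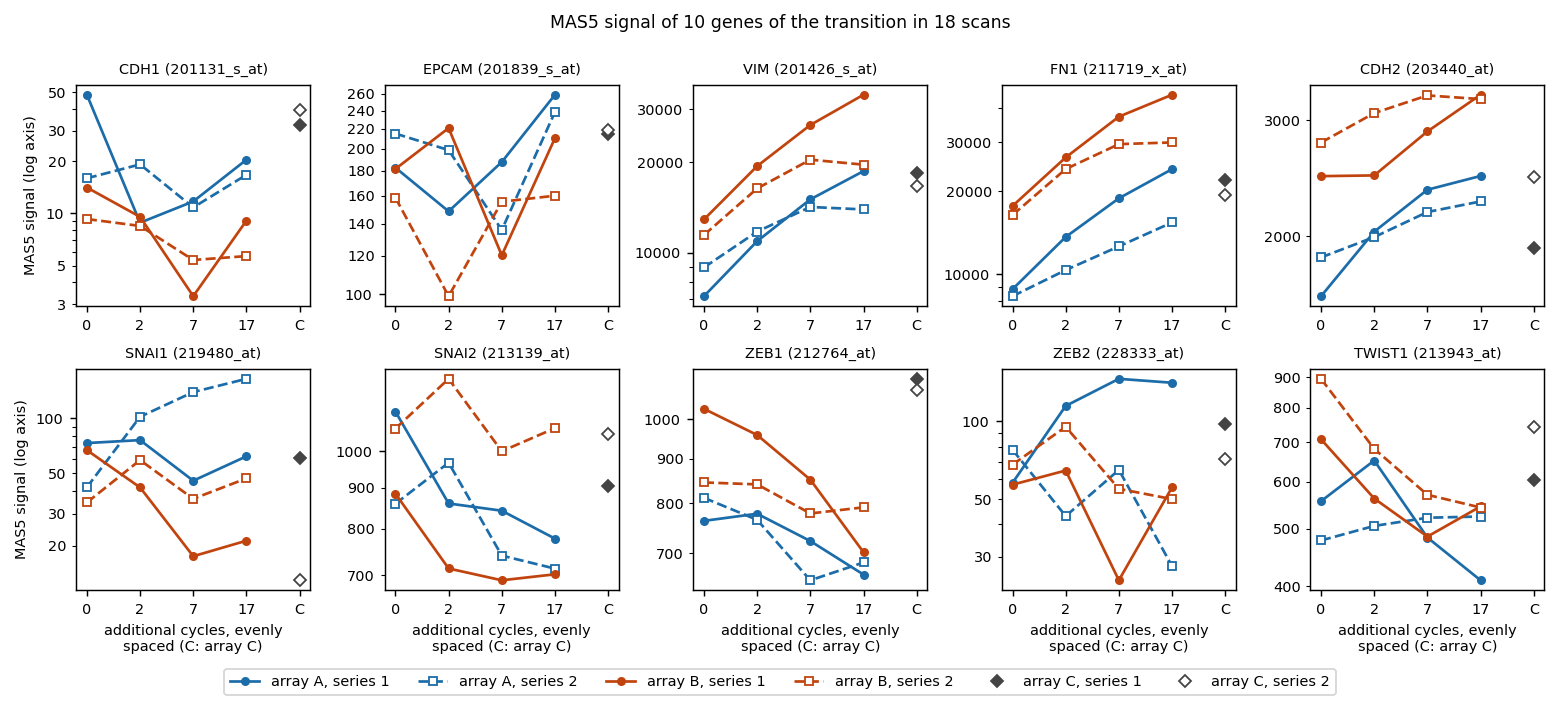
MAS5 signal (log axis, separate scale per panel) of the brightest probe set of each gene against the number of additional washing cycles, with array C at the right of each panel; filled symbols are the first and open symbols the second series. VIM, FN1 and CDH2 are higher at each step of the first series, from 7178 to 18676 for VIM on array A. CDH1, SNAI1, SNAI2, ZEB1 and TWIST1 are lower after 17 than after 0 cycles on both arrays in that series. ZEB2 is higher on array A, and in the second series the factors and CDH1 differ in direction.

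The transcription factors differed in their spread. SNAI2 gave 1122, 861, 843 and 778 on A1 to A4 and 885, 714, 689.6 and 702 on B1 to B4, then 859.9, 968, 741 and 713 on A5 to A8 and 1068, 1233, 1001 and 1069.6 on B5 to B8, with 906 and 1053 on array C. ZEB1 (212764_at) gave 763, 778, 724 and 662 on A1 to A4 and 1028, 959, 852 and 702 on B1 to B4, then 812, 766, 652 and 683 on A5 to A8 and 846, 841, 779 and 791 on B5 to B8, with 1114 and 1080.1 on array C. TWIST1 gave 557, 652, 483 and 409.6 on A1 to A4 and 708, 562, 485 and 545 on B1 to B4, then 478, 506, 522 and 525 on A5 to A8 and 894, 682, 571 and 543 on B5 to B8, with 604 and 742 on array C. These 3 had the smallest standard deviations of log2 signal over the 18 scans, 0.26, 0.23 and 0.27.

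SNAI1 and the representative probe set of ZEB2 were dimmer and more variable. SNAI1 (219480_at) gave 73.3, 76.1, 45.6 and 62.0 on A1 to A4 and 67.1, 41.9, 17.6 and 21.4 on B1 to B4, and in the second series 42.0, 102.2, 139.6 and 165.0 on array A and, for array B, 34.6, 59.1, 36.3 and 47.0. Array C gave 61.1 and 13.0. ZEB2 (228333_at) gave 57.9, 114.8, 146.1 and 141.1 on A1 to A4 and 57.0, 64.6, 24.4 and 55.7 on B1 to B4, then 77.8, 43.1, 65.0 and 27.6 on A5 to A8 and 68.1, 95.4, 54.9 and 50.1 on B5 to B8, with 98.1 and 71.5 on array C. The standard deviations were 0.96 and 0.70, and each of these probe sets was above the reference in 1 of 18 scans. Another ZEB2 probe set, 203603_s_at, was above it in 10. For all probe sets the median standard deviation was 1.348 in the lowest and 0.307 in the highest decile of signal on C1.

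The first comparison asked how the signals change with washing, as 17 against 0 additional cycles in the first series, by limma on log2 signals with Benjamini-Hochberg adjustment over all probe sets. VIM was higher by 1.38 on the log2 scale (SE 0.26, limma adjusted p = 0.192) and FN1 (211719_x_at) by 1.39 (SE 0.26, limma adjusted p = 0.192), each in both arrays. CDH2 (203440_at) differed by 0.51 (SE 0.27, limma adjusted p = 0.389) and EPCAM by 0.36 (SE 0.39, limma adjusted p = 0.645). The test called 0 of the 26 probe sets, and 0% of all 54675 were called. At an unadjusted p under 0.05, 5 member probe sets, all of VIM and FN1, were higher and 3 lower, against 1914 (3.5%) and 7573 (13.9%) of all probe sets.

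The change over all probe sets had a median of -0.45 on the log2 scale, and the size of the members' values depends on the scaling. After quantile normalization, which equalises the distribution of all scans, the value was 0.01 for VIM, 0.02 for FN1 and 0.02 for CDH2. Centring on the median gave 1.83, 1.85 and 0.97. SNAI2 (-0.43), ZEB1 (-0.38) and TWIST1 (-0.41) were below 0 in the scaling as deposited, and above 0 with median centring, at 0.02, 0.08 and 0.05. CDH1 gave -0.94 (SE 0.57, limma adjusted p = 0.433) for 201131_s_at and -2.06 (SE 0.89, limma adjusted p = 0.322) for 201130_s_at.

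With other settings of the fit the bright probe sets passed the threshold. When only the brighter 27337 probe sets were fitted, VIM and 4 of FN1 were called as higher (limma adjusted p = 0.0445), 5 of the 19 members among these against 1.98% of all. With robust moderation and a trend of the variance with signal, CDH2 (203440_at) joined them (limma adjusted p = 0.0399), 6 of 26 against 3.57%. With a line in the logarithm of 1 plus cycles the count was 5 of 26, against 1.1%. A signal higher at every step on both arrays was found for the same 6 probe sets, against 3.77% of all, and a signal lower at every step for 0 members, against 2.97%. The 4 FN1 probe sets read 1 gene and took similar courses over the scans, so these counts of probe sets are not counts of genes. The share called among probe sets of like brightness was not computed.

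**Figure D3:**
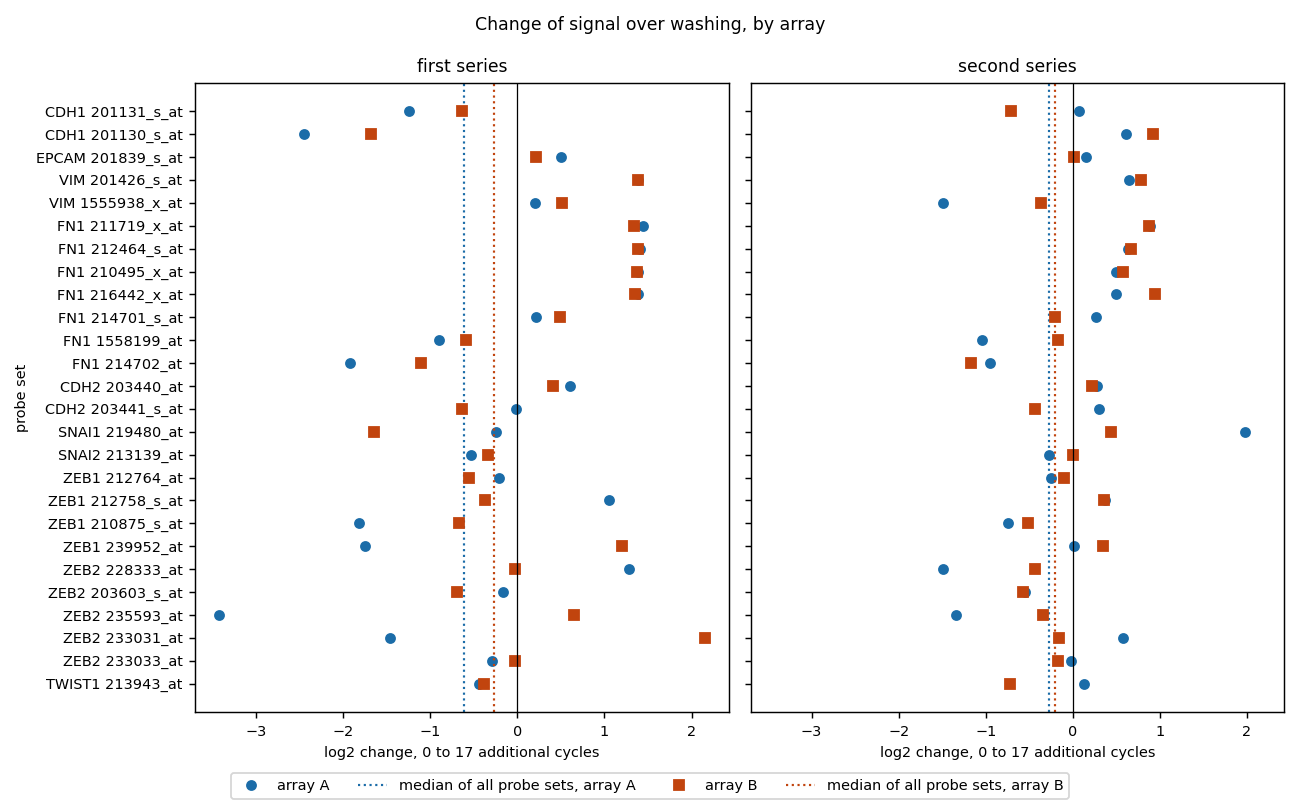
Log2 change of signal from 0 to 17 additional cycles for each of the 26 probe sets, array A as circles and array B as squares, in the first series (left) and the second (right); dotted lines mark the median of all probe sets on each array. In the first series VIM 201426_s_at and 4 FN1 probe sets lie between 1.34 and 1.44 on both arrays, and the dim probe sets of CDH1, ZEB1 and ZEB2 spread widely.

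In the second series VIM gave 0.71 (SE 0.17, limma adjusted p = 0.329), FN1 (211719_x_at) 0.88 (SE 0.19, limma adjusted p = 0.329) and CDH2 0.25 (SE 0.17, limma adjusted p = 0.519). Again 0 members were called, and 0% of all probe sets. After quantile normalization the values were 0.14, 0.33 and 0.02. With the trended, robust fit VIM and 3 FN1 probe sets were called as higher, against 2.38% of all probe sets, and FN1 214702_at as lower, against 0.448%. Higher at every step on both arrays was 1 member, FN1 (211719_x_at), against 1.36%, and lower at every step were 0, against 2.07%.

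Whether washing acted alike in both series was tested by an interaction term. SNAI1, a zinc finger repressor of CDH1, was lower after washing on both arrays in the first series, by values of -0.24 and -1.65 on the log2 scale, and higher on both in the second, by 1.98 and 0.44. The interaction was 2.15 (SE 0.67, limma adjusted p = 0.954), and SNAI1 lay above the reference in only 1 scan. CDH1 (201130_s_at) gave 2.83 (SE 1.04, limma adjusted p = 0.954). VIM gave -0.67 (SE 0.33, limma adjusted p = 0.959) and FN1 -0.51 (SE 0.30, limma adjusted p = 0.968), values that were 0.13 and 0.31 after quantile normalization. The test called 0 members and 0% of all probe sets. With the trended, robust fit 3 FN1 probe sets were called as lower, against 0.583%.

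The next comparison set the second series against the first in 9 pairs of the same array and step, and addresses what a second staining does to the signals. The second scan of each pair also had more washing cycles in total (A1 0 and A5 17, C1 6 and C2 12), so that staining and added washing cannot be told apart. FN1 (211719_x_at) was lower in 9 of 9 pairs, by -0.08, -0.40, -0.58 and -0.64 on array A, by -0.11, -0.14, -0.33 and -0.57 on array B and by -0.17 on array C. The mean was -0.34 (SE 0.11, limma adjusted p = 0.149). The other bright FN1 probe sets were less uniform. FN1 216442_x_at was lower in 8 of 9 pairs, with a mean of -0.33 (limma adjusted p = 0.181). FN1 212464_s_at was lower in 6, with -0.21 (limma adjusted p = 0.384), and 210495_x_at in 5, with -0.09 (limma adjusted p = 0.768). VIM was lower in 7 of 9 pairs, with a mean of -0.20 (SE 0.13, limma adjusted p = 0.422), and CDH2 in 4 of 9, with 0.10 (SE 0.11, limma adjusted p = 0.619). SNAI2 gave 0.21 (SE 0.15, limma adjusted p = 0.458), and was higher on all 4 pairs of array B but on 1 of 4 of array A.

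Of the 26 probe sets 0 were called, while 0.836% of all were, 161 as higher and 296 as lower. The 9 pairs come from 3 hybridizations, and with the array as the unit 0 probe sets were called. With median centring the split was 254 to 290. Without array B the test called 0 probe sets, without array A 50, and without array C 735. With the trended, robust fit FN1 211719_x_at (limma adjusted p = 0.0296) and 216442_x_at (limma adjusted p = 0.0466) were called as lower, against 1.83%. Lower in all 9 pairs was 1 member, against 2.2%, and higher in all 9 were 0, against 1.72%. The smallest adjusted p of the members was that of ZEB2 235593_at, with -1.12 (SE 0.33, limma adjusted p = 0.115) and signals of 3.25 to 62.2.

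**Figure D4:**
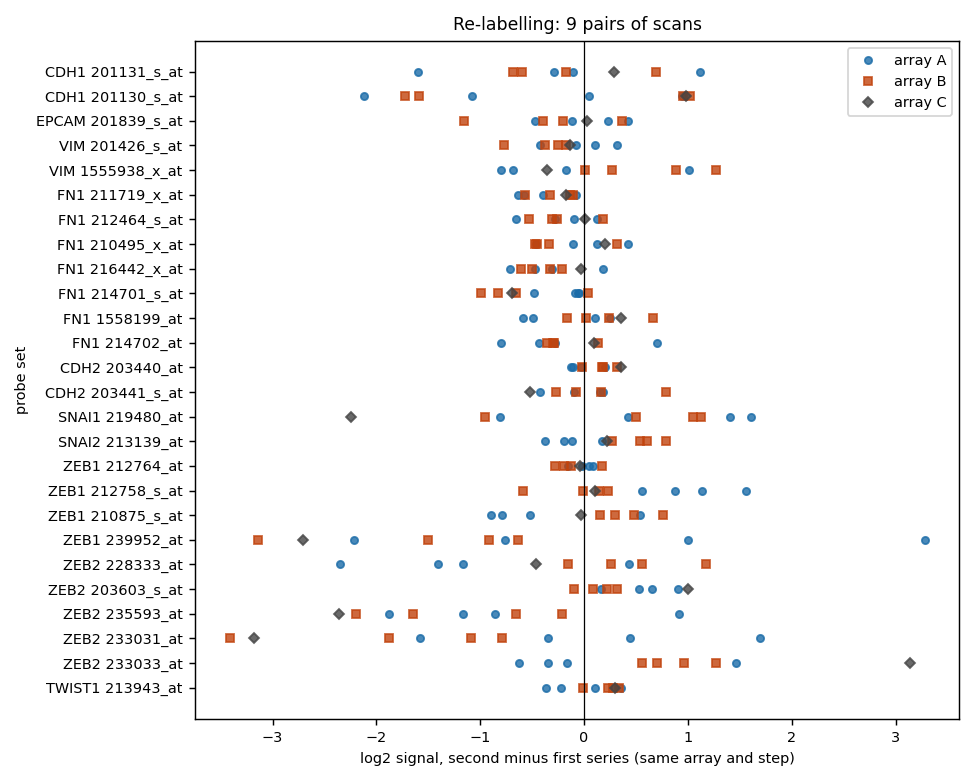
Log2 signal of the second minus the first series for each of the 26 probe sets, 1 point per pair of scans of the same array and step, with shapes for arrays A, B and C. All 9 points of FN1 211719_x_at lie below 0, and the points of the dim ZEB1 and ZEB2 probe sets extend beyond 3 log2 units.

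Directly across the second staining the bright VIM and FN1 probe sets gave lower signals on arrays A and B, but not clearly on array C. From A4 to A5, with no stringent cycle in between, VIM went from 18676 to 8943, a log2 difference of -1.06. FN1 went from 24005 to 8328, a difference of -1.53, while the median of all probe sets was 0.29. From B4 to B5, with 2 cycles in between, the differences were -1.55 and -1.45 against a median of 0.21. ZEB1 (212764_at) differed by 0.29 and 0.27 in the same pairs. From C1 to C2, with 6 cycles in between, VIM differed by -0.14, the bright FN1 probe sets by -0.17 to 0.20 and CDH2 (203440_at) by 0.36, against a median of 0.08. Each pair is 1 scan against 1 and was not tested. The authors report that in the second series a small fraction of probes reached the upper limit of the scanner. From the similar slopes in both series they treat scanner nonlinearity near saturation as negligible, as an approximation. The MAS5 signals do not show which probes reached the limit, so that differences of bright probe sets into or within that series may be truncated. The part of this limit in them was not tested.

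Probe sets of 1 gene often took different courses over the scans. The 3 other bright FN1 probe sets (212464_s_at, 210495_x_at and 216442_x_at) correlated with 211719_x_at over the 18 scans with Pearson's r of 0.971, 0.916 and 0.957. The less bright ones gave -0.309 (214701_s_at, 132 to 424), -0.424 (1558199_at, 204 to 451) and -0.44 (214702_at, 88.5 to 372). Of these, 214701_s_at and 1558199_at were above the reference for low signals in all 18 scans and 214702_at in 14. FN1 214702_at gave -1.52 (SE 0.46, limma adjusted p = 0.235) with washing in the first and -1.06 (SE 0.18, limma adjusted p = 0.329) in the second series, against 1.39 and 0.88 for 211719_x_at.

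VIM 1555938_x_at (45.5 to 151) correlated at -0.138 with the bright VIM probe set, and CDH2 203441_s_at (209 to 434) at -0.231 with 203440_at. For ZEB1 the values were 0.424 (210875_s_at), -0.192 (212758_s_at) and -0.116 (239952_at), for the 4 other ZEB2 probe sets -0.205 to 0.05, and for the CDH1 pair 0.584. The signals of these ZEB1 probe sets ranged from 64.6 to 228 (210875_s_at), 92.2 to 356 (212758_s_at) and 4.88 to 98.2 (239952_at). Those of ZEB2 ranged from 43.2 to 151 (203603_s_at), 3.25 to 62.2 (235593_at), 2.85 to 76.7 (233031_at) and 2.36 to 25.1 (233033_at), and the last 2 were above the reference in 0 scans. The points of these correlations share arrays and RNA, and no test is attached to them.

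The probe sets of other genes with the course most like that of FN1 (211719_x_at) were those of TUBA1B and RPL22, both with a Pearson's r of 0.979 over the 18 scans. For VIM they were RPS10 (0.987) and B2M (0.985), for CDH2 RNF11 (0.961) and CCNB1IP1 (0.959), and for CDH1 (201131_s_at) SMOX (0.881) and NAA25 (0.877). They were picked as the highest of all probe sets, and the points share arrays and scaling.

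Further genes of the transition were taken from lists. In a list of mesenchymal and matrix genes 24 of 25 were measured and 19 were above the reference in all scans, among them S100A4 (17189 on C1), the hyaluronan receptor CD44 (13601) and the actin-binding TPM1 (13224). The epithelial list had 22 of 25 measured and 4 above the reference in all scans, led by the tight junction gene TJP1 (5353) and the keratins KRT7 (4123) and KRT18 (1408). Of 24 signalling genes and further factors 14 were above it, led by HIF1A (19853), JAG1 (2455) and SMAD2 (2068), and of 8 genes of the cadherin complex 6, led by VCL (8224), IQGAP1 (5588) and CTNNAL1 (4091).

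By limma 0 genes of these 4 lists were called in either direction in any of the comparisons. Of all probe sets 0% were called for washing in either series and for the interaction, and 0.836% for re-labelling. At an unadjusted p under 0.05, in the first washing series 9 mesenchymal genes were higher and 2 lower, 3 epithelial higher and 2 lower, 4 of the cadherin complex higher and 1 lower, and 1 signalling gene higher and 1 lower. Of all 19775 genes 5.41% were higher and 11.2% lower by this rule. The median change was 0.45 for the mesenchymal, -0.48 for the epithelial, -0.28 for the signalling and 0.43 for the cadherin list, against -0.27 for all 19775 genes. In the second series the medians were 0.23, -0.03, -0.30 and 0.24, against -0.15. These medians are of the signals as deposited and were not recomputed after quantile normalization, and the lists differ in brightness. The bright epithelial genes TJP1, KRT7 and KRT18 gave 0.78, 0.89 and 0.80 in the first series, the same direction as the mesenchymal CD44 with 1.29.

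A common summary of the transition subtracts the mean log2 signal of epithelial genes from that of mesenchymal genes. With VIM, FN1 and CDH2 against CDH1 and EPCAM it ranged from 5.64 (A1) to 9.47 (B3) for the same RNA. Its zero has no meaning, since probe sets differ in brightness, and only its change between scans is read here. On A1 to A4 it was 5.64, 7.54, 7.54 and 7.15, and on B1 to B4 7.35, 7.88, 9.47 and 8.60. On A5 to A8 it was 6.47, 6.66, 7.57 and 6.96, on B5 to B8 7.71, 8.52, 8.76 and 8.69, and on array C 6.78 and 6.64.

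From 0 to 17 cycles the summary differed in the first series by 1.52 (array A) and 1.25 (array B), 1.38 ± 0.19 (SD, n = 2), and by 0.50 and 0.97 in the second, 0.73 ± 0.34 (SD, n = 2). After quantile normalization the change was -0.39 ± 0.33 (SD, n = 2) and -0.21 ± 0.56 (SD, n = 2), the opposite sign. When the probe sets of each gene were averaged it was 1.06 in the first and -0.10 in the second series. The CDH1 probe set used in the summary (201131_s_at) was below the reference in all scans, and the other (201130_s_at) was above it on A1, with 274.1 against 270.0.

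**Figure D5:**
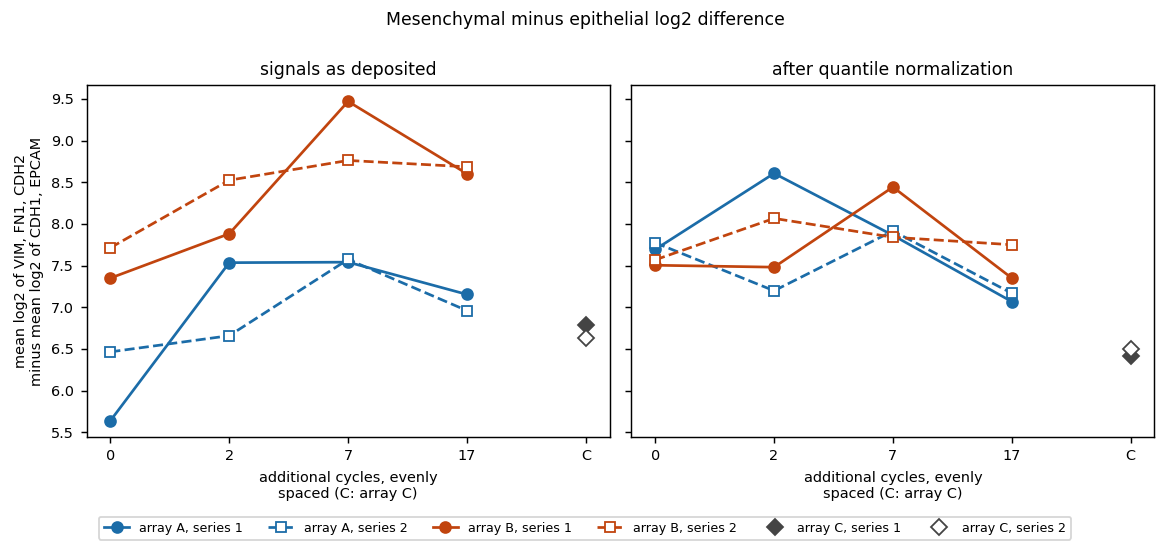
Mean log2 signal of VIM, FN1 and CDH2 minus that of CDH1 and EPCAM against the number of additional cycles, for the signals as deposited (left) and after quantile normalization (right); lines join the scans of an array and series, diamonds are array C. On the left the value starts at 5.64 on array A and is higher after 17 cycles in all 4 runs, and on the right it is lower after 17 cycles in 3 of 4 runs.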

How the data were processed

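1 RNA sample was measured in 18 scans of 3 HG-U133 Plus 2.0 arrays. The authors converted the probe intensities with MAS5 (version not given in the sources used here) into 1 signal per probe set, deposited on a linear scale and scaled per scan. The trimmed mean without the lowest and highest 2% was checked on the values. Aligning scans in this way removes a common loss of intensity. Of the probe sets 41097 have 1 symbol, 1801 several and 11777 none in the platform annotation, and for 41043 of the probe sets with 1 symbol the gene identifier was present in RefSeq (GRCh38.p14), which changed 0 symbols.

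Log2 signals, with no offset or filter, were fitted with limma (version 3.58.1, run under R version 4.3.3, tables read by the data.table package, version 1.17.8) at a threshold of 0.05. Each washing fit used the 8 scans that arrays A and B contributed to a series, with terms for step and array. The interaction used all 16 of them, and re-labelling all 18 scans with a term for each pair. The array letter pairs the scans: deviations of scans of 1 array correlated at 0.345 to 0.557 in the first and 0.565 to 0.769 in the second series. The fits were tested on simulated data. Those for washing and the interaction missed all or most of the smaller changes, so that 0 calls in these comparisons do not show an absence of change. The simulated noise was drawn independently for each scan around a fixed shift per array, and was scaled below the spread of the data. The share missed in the real scans may therefore differ. Descriptive values used Python 3.11.15 with numpy 2.4.6 and pandas 2.3.3, and plots matplotlib 3.10.9.

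Every probe set of the 10 genes is named. Where 1 probe set stands for a gene, it is the brightest on C1, and from each list the 3 genes brightest there are named, and for likeness the 2 probe sets with the highest correlation for the 3 brightest members and CDH1. Thyroid, THY1 and other marker genes come from the marker lists. Members and lists were chosen with earlier results of these data known. Alternatives were median centring, quantile normalization, an offset of 16, a fit of the brighter 27337 probe sets alone, robust moderation with a trended variance, a fit without the replicate block, a line in cycles, the array as the unit, and leaving out scans or arrays.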

Additional observations from a re-analysis of the deposited data

How the results depend on the processing

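For single genes 492 values were recomputed under the alternatives, of which 459 kept direction and side of the threshold, 10 passed it in addition and 23 changed sign. None of these genes was called in the main fits, so a call could not be lost. Washing values with an array left out were not tested and kept their side by definition. The count does not measure size: VIM, FN1 and CDH2 kept their direction in the first series under quantile normalization, with values close to 0. In the first washing series the calls went from 0 to 705 among the brighter 27337 probe sets, 2615 with a variance trend and 1165 with a line in cycles. The members among them were 5, 6 and 5 probe sets, of VIM, FN1 and, with the trend, CDH2. With the variance trend the second series gave 1546 calls and 5 members, the interaction 327 and 3, and re-labelling 1834 and 2. Re-labelling gave 967 calls with an offset of 16, 245 among the brighter probe sets, 0 with the array as the unit, and 0 to 735 when 1 array was left out. Without the replicate block it gave 123 calls, and 0 were called for washing and the interaction, as with the block. Leaving out scan A5 gave 1 call in the interaction, and 0 to 1 over all scans left out.

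Median centring changed the sign of SNAI2 to 0.0238, ZEB1 to 0.0778 and TWIST1 to 0.047 in the first series, of SNAI2 to 0.1616, ZEB1 to 0.1237 and TWIST1 to 0.0027 in the second, and of TWIST1 to -0.0443 in the interaction. Quantile normalization did so for CDH1 (0.3663) in the second series and for VIM (0.1281) and FN1 (0.3147) in the interaction. Leaving out arrays or scans gave ranges across 0: for ZEB2 -0.1559 to 1.4065 in the first series, in the second for CDH1 -0.7096 to 0.0669, SNAI2 -0.2697 to 0.0019 and TWIST1 -0.7198 to 0.134, and for TWIST1 -0.2528 to 0.4851 in the interaction. For re-labelling these were EPCAM -0.27 to 0.0207, SNAI1 -0.1021 to 0.5463, SNAI2 -0.0621 to 0.4843 and ZEB2 -0.9934 to 0.2766, and SNAI1 was -0.3812 with the array as the unit. The cause was not tested in any of these cases.

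The change of the mesenchymal minus epithelial summary by washing was -0.39 in the first and -0.21 in the second series with quantile normalization. The latter is the mean of -0.606 on array A and 0.181 on array B. With an offset of 16 the change was 1.195 in the first and 0.622 in the second series. When the probe sets of each gene were averaged it was 1.06 and -0.10, an alternative chosen after seeing the data. The probe sets that stand for CDH1, SNAI1 and ZEB2 were above the reference for low signals in 0, 1 and 1 of 18 scans, which limits what can be read from them.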

Other observations

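On scan A4 the FN1 probe sets 211719_x_at and 212464_s_at hold the same deposited signal, 24005.3, while they differ on the other 17 scans.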
